A study of Mus musculus with 6 samples.

Results

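Fc receptors are the proteins through which cells bind the constant (Fc) part of antibodies, and 7 genes of this family and of antibody transport are described here in choroid plexus taken from mice of different age. They were chosen by gene symbol: the IgG receptors Fcgr1, Fcgr2b, Fcgr3 and Fcgr4, the signalling chain Fcer1g, the neonatal Fc receptor Fcgrt and the polymeric immunoglobulin receptor Pigr. All 7 had a probe set, among 25206 probe sets in the table. The choroid plexus is the vascularised epithelial tissue in the brain ventricles that makes cerebrospinal fluid. Whole tissue from C57BL/6J mice with no stated treatment or genetic change was measured on expression arrays, with 3 mice of 2 to 3 months (young) and 3 mice of 20 to 22 months (aged). Each array holds the RNA of 1 mouse, and neither sex nor batch is given in the sources used here. The comparison asks how expression differs between the 2 ages.

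Fcgr1 encodes the high-affinity receptor for IgG, and Fcgr3 and Fcgr4 encode activating receptors that bind IgG in immune complexes. In mice these activating receptors need the common gamma chain Fcer1g, which carries them to the cell surface and holds the tyrosine motif (ITAM) that recruits the kinase Syk. Fcgr2b is the inhibitory receptor, whose own tyrosine motif (ITIM) recruits the lipid phosphatase Inpp5d. Fcgrt pairs with beta-2-microglobulin to recycle IgG and albumin and to carry IgG across cell layers. Pigr carries polymeric IgA and IgM, joined by the J chain, across epithelia.

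Expression is given as log2 values, in which a difference of 1 is a doubling, and differences are aged minus young. Array medians lay between 4.03 and 4.09 and correlations between arrays between 0.982 and 0.990. As a guide to background, 1350 probe sets of smell and pheromone receptors, genes used in the nose, centred on a median of 1.76, with their 95th percentile at 3.46. Since probes differ in brightness, this guide is rough. Beyond it and the tissue check that follows, levels of different probe sets are not compared with each other. The tissue label was borne out by its epithelial markers: the mean of 8 such genes, among them Ttr, Folr1 and Kl, lay between 10.90 and 11.23 on every array.

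The common gamma chain Fcer1g and the activating receptor Fcgr3 had the largest differences of the family, both with every aged array above every young one. Fcgr1 stood slightly higher on average with overlapping groups, and the inhibitory receptor Fcgr2b and the IgG transporter Fcgrt overlapped between the ages. Fcgr4 and Pigr did not exceed the background guide on any array. None of the 7 genes passed limma's test with Benjamini-Hochberg adjustment over all probe sets at a threshold of 0.05, where 0.0595% of probe sets were called higher and 0.0198% lower. By unadjusted p below 0.05, 2 of the 7 stood higher and 0 lower, beside 3.82% and 3.96% of all probe sets. All 3 aged arrays lay above all 3 young arrays for 2 of the 7, which 6.69% of all probe sets did, and the reverse held for 0 of the 7 beside 6.93%. These shares over all probe sets also stand beside the counts of each list below. A difference above 0 was found for 6 of the 7 and for 49.5% of all probe sets. The median difference of the 7 was 0.12, against 0.00 (-0.00183 before rounding) over all probe sets.

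**Figure D1:**
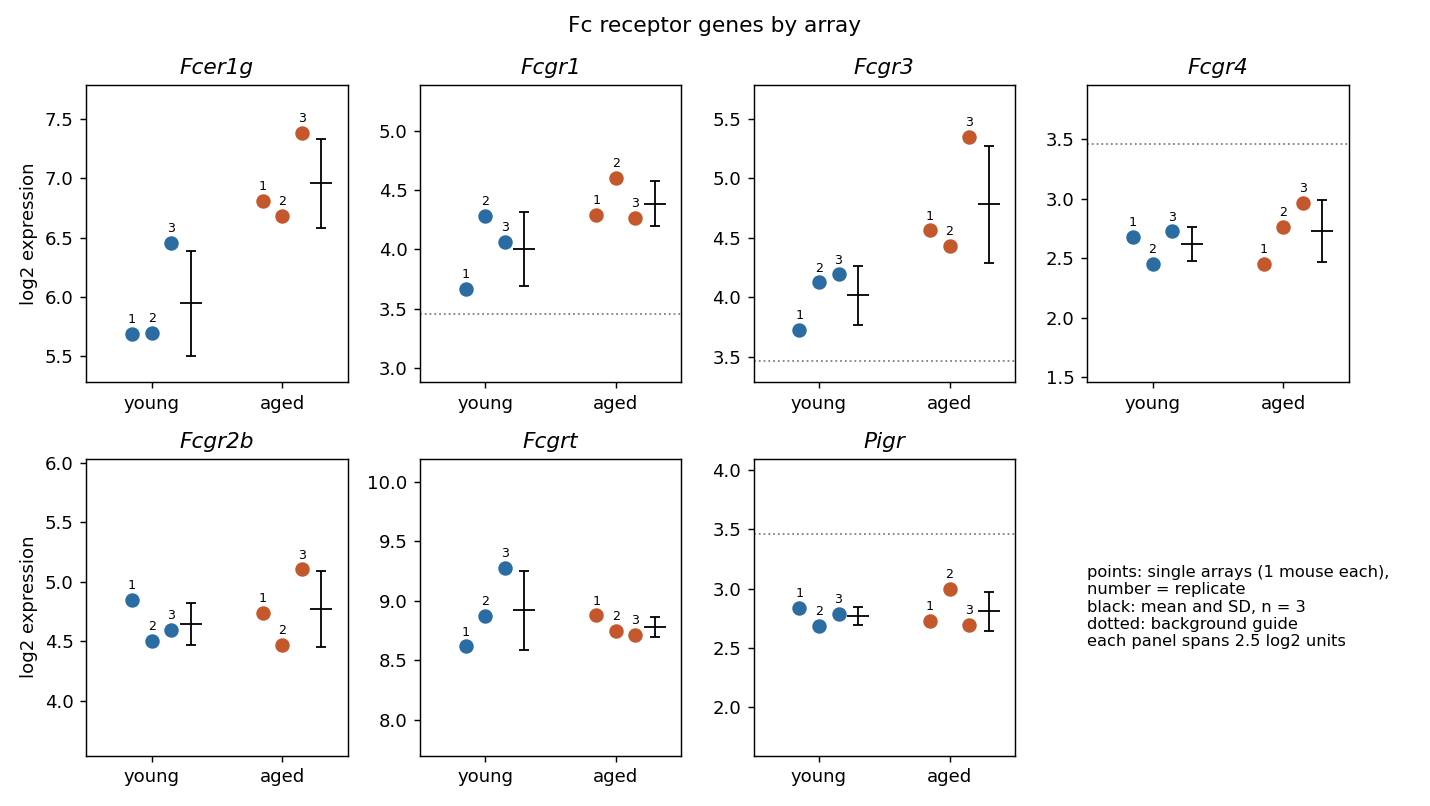
Log2 expression of the 7 genes on each of the 6 arrays, with the mean and SD of each age group (n = 3). Aged points lie above all young points for Fcer1g and Fcgr3, and all points of Fcgr4 and Pigr lie under the dotted background guide at 3.46.

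Fcer1g (Entrez gene 14127, chromosome 1) was measured at 5.69, 5.70 and 6.45 in young replicates 1, 2 and 3 and at 6.81, 6.68 and 7.38 in aged replicates 1, 2 and 3. Young replicate 3 stood above the remaining young arrays, and aged replicate 3 was the highest of all. The group means were 5.94 ± 0.44 and 6.96 ± 0.37 (SD, n = 3 each), a difference of 1.01 with a 95% interval of 0.42 to 1.60. This is a 2.02-fold difference (interval 1.34 to 3.04) that did not pass over all probe sets (limma adjusted p = 0.389, unadjusted p = 0.00432). A difference of at least 1 was seen in 0.472% of all probe sets, and one at least as large as that of Fcer1g in 0.456%. For Fcer1g the authors' deposited table lists a q-value of 0.243 after their filter. Leaving out single arrays moved the difference between 0.80, without aged replicate 3, and 1.26, without young replicate 3.

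Fcgr3 (Entrez gene 14131, chromosome 1), the activating low-affinity IgG receptor of macrophages and natural killer cells, was at 3.73, 4.13 and 4.19 in the young and at 4.56, 4.43 and 5.35 in the aged replicates. All 6 arrays lay above the background guide, young replicate 1 only just, and aged replicate 3 stood apart from the other aged arrays. The means were 4.01 ± 0.25 and 4.78 ± 0.49 (SD, n = 3 each). The difference was 0.77 (interval 0.19 to 1.34), or 1.70-fold, and did not pass (limma adjusted p = 0.510, unadjusted p = 0.0151). A difference at least as large was seen in 0.817% of all probe sets. Without aged replicate 3 it was 0.48, still with both remaining aged arrays above the young ones. Fcgr3 and Fcgr2b are closely alike in the part that binds IgG, and the probe sequences were not used here, so cross-hybridisation between them was not tested.

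Fcgr1 (Entrez gene 14129, chromosome 3) was at 3.67, 4.28 and 4.06 in the young and at 4.29, 4.60 and 4.26 in the aged replicates. The groups touched: young replicate 2 lay just above aged replicate 3. The means were 4.002 ± 0.31 and 4.39 ± 0.19 (SD, n = 3 each), with a difference of 0.38 whose interval, -0.03 to 0.79, included 0 (limma adjusted p = 0.668). Without young replicate 1, the lowest array, the difference was 0.22.

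Fcgr4 (Entrez gene 246256, chromosome 1), the activating receptor for IgG2 subclasses, was at 2.68, 2.45 and 2.73 in the young and at 2.45, 2.77 and 2.97 in the aged replicates. None of the 6 arrays reached the background guide. The means were 2.62 ± 0.15 and 2.73 ± 0.26 (SD, n = 3 each) and the difference was 0.11 (interval -0.25 to 0.47, limma adjusted p = 0.906). Arrays compress differences near background, so a difference in Fcgr4 may not be detectable at this signal.

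Fcgr2b (Entrez gene 14130, chromosome 1), the inhibitory receptor, was at 4.85, 4.50 and 4.60 in the young and at 4.74, 4.47 and 5.11 in the aged replicates. The highest and the lowest value both belonged to aged arrays. The means were 4.65 ± 0.18 and 4.77 ± 0.32 (SD, n = 3 each), and the difference of 0.12 had an interval of -0.29 to 0.54 (limma adjusted p = 0.905). Without aged replicate 3 its sign turned, to -0.043.

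The balance between activating and inhibitory receptors was followed within each array, as the log2 value of an activating receptor minus that of Fcgr2b. Only changes of this measure with age can be read, not its level. For Fcgr3 it was -1.12, -0.38 and -0.40 in the young and -0.18, -0.03 and 0.24 in the aged replicates, so that all aged arrays lay above all young ones. The means were -0.63 ± 0.42 and 0.01 ± 0.21 (SD, n = 3 each), a difference of 0.64. An exact two-sided permutation test gave p = 0.10, the smallest that 3 against 3 arrays allow, and 0.30 adjusted over the 3 receptors. Young replicate 1 had the lowest value, and without it the difference was 0.40. For Fcgr1 the measure overlapped between the ages, with a difference of 0.26 (exact permutation p = 0.50, adjusted p = 0.75). For Fcgr4 the difference was -0.02 (exact permutation p = 1.0, adjusted p = 1.0), with Fcgr4 in the background range.

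Of the 7 genes, 4 lie close together on mouse chromosome 1, in the RefSeq order Fcgr2b, Fcgr4, Fcgr3 and, past other protein-coding genes, Fcer1g. From Fcrlb to Fcer1g, the measured ones that are not among the 7 Fc receptor genes, which include Sdhc of the respiratory chain, differed by -0.13 to 0.09. Fcgr3 and Fcer1g were the 2 genes of the stretch whose groups did not overlap. Pigr lies between Fcamr and Fcmr, both encoding receptors that bind IgM, and these 3 neighbours differed by 0.04 for Pigr, 0.17 for Fcamr and 0.21 for Fcmr with overlapping groups.

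**Figure D2:**
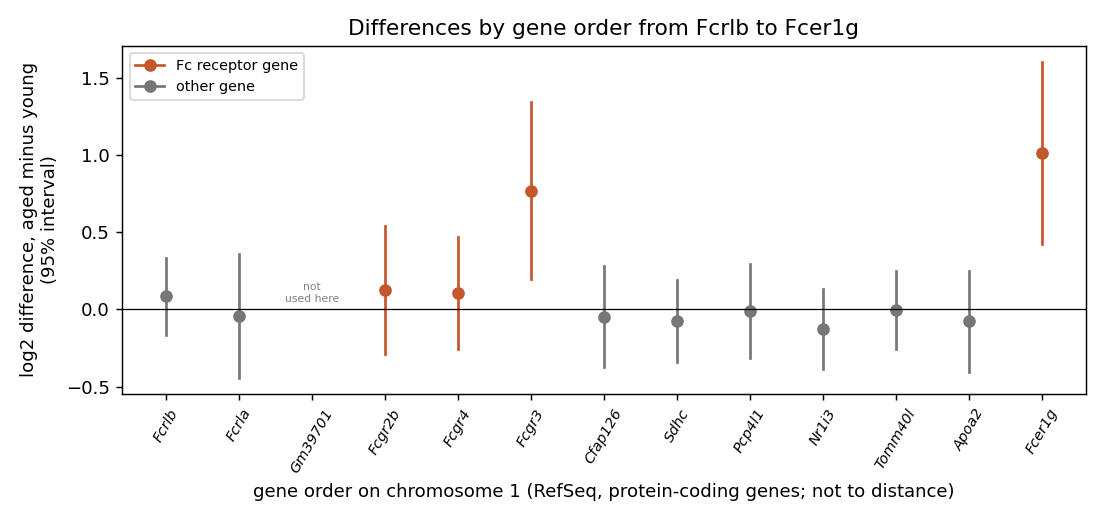
Log2 difference, aged minus young, with its 95% interval (limma, n = 3 each) for protein-coding genes from Fcrlb to Fcer1g, in the order they have on chromosome 1 and not to distance. Fcgr3 at 0.77 and Fcer1g at 1.01 stand above the other measured genes, which lie between -0.13 and 0.12.

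The sequences around the start sites of the activating chains and of Fcgr2b are shown because Fcgr3 and Fcer1g stood higher together while Fcgr2b, from the same stretch of the chromosome, overlapped between the ages. Each runs from 250 bases before to 50 bases after the RefSeq start in GRCm38.p6, 5′ to 3′ on the strand of the gene. Capitals mark AGGAAG or its reverse complement CTTCCT, a core that transcription factors of the ETS family, such as PU.1 of myeloid cells, are known to bind. The windows are chr1:171234300-171234599 on the minus strand for Fcer1g, chr3:96293920-96294219 minus for Fcgr1, chr1:171059354-171059653 minus for Fcgr3, chr1:171018676-171018975 plus for Fcgr4 and chr1:170976022-170976321 minus for Fcgr2b.
Fcer1g: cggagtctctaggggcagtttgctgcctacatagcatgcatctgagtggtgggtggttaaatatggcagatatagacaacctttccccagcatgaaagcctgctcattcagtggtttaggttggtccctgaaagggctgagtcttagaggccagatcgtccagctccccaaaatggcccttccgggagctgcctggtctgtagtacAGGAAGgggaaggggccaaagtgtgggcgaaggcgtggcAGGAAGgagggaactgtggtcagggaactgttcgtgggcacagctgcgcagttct
Fcgr1: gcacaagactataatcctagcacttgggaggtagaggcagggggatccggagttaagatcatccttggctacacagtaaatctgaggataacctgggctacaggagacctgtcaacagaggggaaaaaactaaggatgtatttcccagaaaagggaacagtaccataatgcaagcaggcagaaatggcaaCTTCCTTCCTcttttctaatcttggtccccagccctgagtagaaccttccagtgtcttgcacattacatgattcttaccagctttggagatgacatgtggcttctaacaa
Fcgr3: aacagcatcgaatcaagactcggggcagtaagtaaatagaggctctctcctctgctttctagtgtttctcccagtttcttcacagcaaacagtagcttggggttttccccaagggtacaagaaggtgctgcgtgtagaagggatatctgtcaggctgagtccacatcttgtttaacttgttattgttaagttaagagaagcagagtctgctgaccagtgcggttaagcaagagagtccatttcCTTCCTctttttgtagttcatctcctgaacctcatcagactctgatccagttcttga
Fcgr4: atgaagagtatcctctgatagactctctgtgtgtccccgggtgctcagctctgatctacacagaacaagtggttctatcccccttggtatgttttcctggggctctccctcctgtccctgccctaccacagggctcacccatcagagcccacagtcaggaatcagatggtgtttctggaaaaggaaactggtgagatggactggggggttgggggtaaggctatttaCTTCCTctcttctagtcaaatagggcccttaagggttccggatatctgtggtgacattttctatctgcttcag
Fcgr2b: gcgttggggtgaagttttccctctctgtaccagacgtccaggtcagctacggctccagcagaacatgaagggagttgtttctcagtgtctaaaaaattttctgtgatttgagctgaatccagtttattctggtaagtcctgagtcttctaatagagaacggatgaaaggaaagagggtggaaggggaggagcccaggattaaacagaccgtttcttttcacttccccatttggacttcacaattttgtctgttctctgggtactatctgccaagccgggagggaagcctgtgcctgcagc

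AGGAAG occurred in 5 of the 7 promoter windows, those of Fcgr1, Fcgr3, Fcgr4, Fcer1g and Pigr, and in 35.4% of all 32851 promoter windows in the table, read on both strands. The longer GAGGAAG, which contains it, occurred in 3 of the 7, the ligand-binding activating receptors Fcgr1, Fcgr3 and Fcgr4, and in 13.6% of all windows. Its first base in the printed strand lay 56 bases before the start in Fcgr1, 7 in Fcgr3 and 23 in Fcgr4, where it reads as CTTCCTC. The table holds a second start for Fcgr3, 9 bases away, with the same match. In Fcer1g 2 matches to AGGAAG began 44 and 5 bases before the start, and Fcgr2b held none in its window. The interferon-type element TTCNNNGAA was found in Fcgr1 and Pigr and in 8.3% of all windows. Also searched were GAGGAA, found in 3 of the 7 windows and in 28.3% of all, the bare core GGAA, found in all 7 and in 96.0%, and the E-box CACGTG, found in Pigr and in 7.2%. The longer ETS motifs contain the shorter ones. These matches describe letters only. Fcgr4, in the background range on the arrays, held the same longer match as Fcgr3. The motifs were chosen with the array values known.

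Fcgrt (Entrez gene 14132, chromosome 7), the IgG and albumin transporter, was at 8.62, 8.87 and 9.28 in the young and at 8.88, 8.75 and 8.71 in the aged replicates. The young arrays spread more widely than the aged ones, which lay inside their range. The means were 8.92 ± 0.33 and 8.78 ± 0.09 (SD, n = 3 each), and the difference of -0.14 had an interval of -0.54 to 0.25 (limma adjusted p = 0.883). Young replicate 3 set its sign, since without that array the difference was 0.036. Its partner chain B2m was at 10.47, 10.20 and 10.45 in the young and at 10.30, 10.62 and 10.86 in the aged replicates, a difference of 0.22 (limma adjusted p = 0.791).

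Of the 12 genes of the light chain and recycling list, which holds B2m, small GTPases of recycling endosomes and the motor Myo5b, 0 passed over all probe sets, and 1 was higher and 1 lower by unadjusted p under 0.05. The list median was -0.03. Rab11b, a GTPase of recycling endosomes, stood at 6.38 ± 0.08 in young and 6.66 ± 0.01 in aged (difference 0.28, limma adjusted p = 0.566). Its relative Rab11a stood at 7.74 ± 0.08 and 7.44 ± 0.21 (difference -0.30, adjusted p = 0.649), and the early endosome GTPase Rab5a differed by -0.26.

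Pigr (Entrez gene 18703, chromosome 1) was at 2.84, 2.69 and 2.79 in the young and at 2.73, 3.00 and 2.70 in the aged replicates, all under the background guide. The means were 2.77 ± 0.07 and 2.81 ± 0.17 (SD, n = 3 each), with a difference of 0.04 (interval -0.25 to 0.32, limma adjusted p = 0.964). Its cargo needs the J chain gene Jchain and, for IgA, the heavy chain gene Igha, and both were under the guide on all 3 young arrays.

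The ligands of these receptors differed most in 1 mouse. Of the 12 listed immunoglobulin and J chain genes 9 had a probe set; 0 passed over all probe sets (limma), 2 were higher by unadjusted p under 0.05, and the list median was 1.91, or 0.29 without aged replicate 3. The IgG heavy chain Ighg2b was at 2.35, 2.29 and 2.19 in the young and at 2.35, 3.09 and 8.16 in the aged replicates. Ighg2c was at 1.97, 4.64 and 7.93 in the aged replicates and at most 3.33 in the young, and Ighg1 at 2.65, 3.31 and 6.93 against at most 3.06. Only in aged replicate 3 were these 3 IgG chains all above the background guide. Igha was at 2.82, 2.87 and 7.84 in the aged replicates and at most 2.65 in the young, and Jchain at 2.07, 2.25 and 6.47 against at most 1.93. All aged arrays lay above all young ones for 5 of the 9 genes, as they did for 6.69% of all probe sets. These were Ighm and Igkc, the mu heavy chain and the kappa light chain, and Igha, Jchain and Ighg2b. The last 3 were under the guide in aged replicates 1 and 2, and Ighg2b was at 2.35 in both young replicate 1 and aged replicate 1 after rounding. In the aged replicates Ighm reached 5.90, 5.49 and 9.58, and Igkc reached 7.52, 7.83 and 11.35 (limma adjusted p = 0.577 and 0.608). Ighe, the chain of IgE, stood at 2.85 in young and 2.80 in aged.

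**Figure D3:**
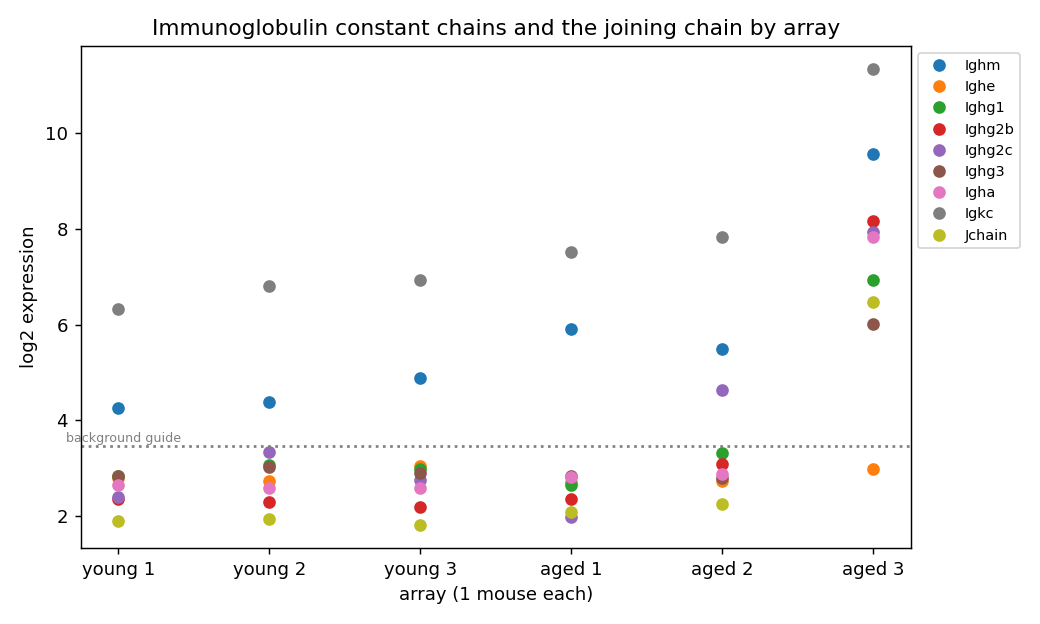
Log2 expression of the 9 measured immunoglobulin and J chain genes on each array, with the background guide at 3.46 as a dotted line. All but Ighe are highest in aged replicate 3, where Ighg2b reaches 8.16 and Igha 7.84.

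Aged replicate 3, with the highest immunoglobulin signal, also had the highest Fcer1g, Fcgr3, Fcgr2b and Fcgr4, while Fcgr1 was highest in aged replicate 2. Without that array the differences were 0.80 for Fcer1g, 0.48 for Fcgr3 and 0.44 for Fcgr1, and 0 of the 7 passed (limma). Both remaining aged arrays then lay above all young ones for 3 of the 7, Fcgr1, Fcgr3 and Fcer1g, as they did for 11.9% of all probe sets. Other Fc and Fc-like receptors stood closer to 0: of 13 listed genes 0 passed (limma), 0 had an unadjusted p under 0.05 in either direction, 9 had a mean under the background guide and the median was 0.06. The IgE receptor chains Fcer1a and Ms4a2 did not exceed 1.69 on any array. Fcmr, the IgM receptor of lymphocytes, stood at 4.37 ± 0.03 in young and 4.58 ± 0.39 in aged, Fcrls, a scavenger-type relative found in mouse microglia, at 5.48 ± 0.51 and 5.41 ± 0.36, Fcer2a differed by -0.20 and Fcrl6 by -0.23.

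Downstream of the receptors, the kinases and adaptors of the activating pathway had small differences on average. Of 14 genes 0 passed (limma), 2 were higher and 0 lower by unadjusted p under 0.05, and the median was 0.08. A mean under the background guide, where arrays compress differences, was found for 6 of the 14, Syk among them. Differences in these genes may not be detectable. The adaptor Lcp2 (SLP-76) stood at 4.98 ± 0.06 in young and 5.70 ± 0.36 in aged (SD, n = 3 each) with no overlap, a difference of 0.71 (SE 0.18, adjusted p = 0.386). The exchange factor Vav3 stood at 3.06 and 3.57, around the background guide, and its relative Vav1 at 3.60 and 3.86. Syk, the kinase that the gamma chain recruits, did not exceed 3.05 on any array and differed by -0.06. Among 8 inhibitory phosphatases and adaptors 0 passed, 1 was higher by unadjusted p under 0.05 and the median was 0.06. Inpp5d, the phosphatase recruited by Fcgr2b, stood at 3.57 ± 0.20 in young and 3.91 ± 0.19 in aged (difference 0.34, adjusted p = 0.642), Dok1 differed by 0.32, Csk by 0.19, Inppl1 by -0.18 and Ptpn6 by 0.03.

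Adaptor chains related to Fcer1g, and receptors known to use such chains, were listed as 9 genes, of which 7 had a mean under the background guide. None passed (limma), and 2 were higher by unadjusted p under 0.05. Tyrobp (DAP12), the other ITAM adaptor of myeloid cells, was at 4.15, 4.19 and 4.28 in the young and 4.57, 4.56 and 5.18 in the aged replicates, a difference of 0.56 (SE 0.18, adjusted p = 0.497). The integrin chain Itgam stood at 3.46 ± 0.18 and 4.22 ± 0.37 (difference 0.76, adjusted p = 0.389). Gp6, the collagen receptor of platelets, differed by 0.37, and Clec4n (Dectin-2) by 0.18, both under the guide.

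The NADPH oxidase of phagocytes, which makes superoxide when Fc receptors engage, had the largest differences of the downstream lists. All 6 genes were higher on average, beside 49.5% of all probe sets. By unadjusted p under 0.05, 3 were higher, beside 3.82% of all probe sets, and 0 passed (limma). The list median was 0.43, or 0.32 without aged replicate 3. The catalytic subunit Cybb was at 4.09, 4.18 and 4.29 in the young and 5.18, 5.20 and 6.49 in the aged replicates, a difference of 1.44 (SE 0.32, adjusted p = 0.345). Ncf1 stood at 3.93 ± 0.08 and 4.44 ± 0.04 (difference 0.51, adjusted p = 0.257), Cyba differed by 0.42 and the GTPase Rac2 by 0.45. In Cybb, Ncf1 and Cyba all aged arrays lay above all young ones, as they did for 6.69% of all probe sets.

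**Figure D4:**
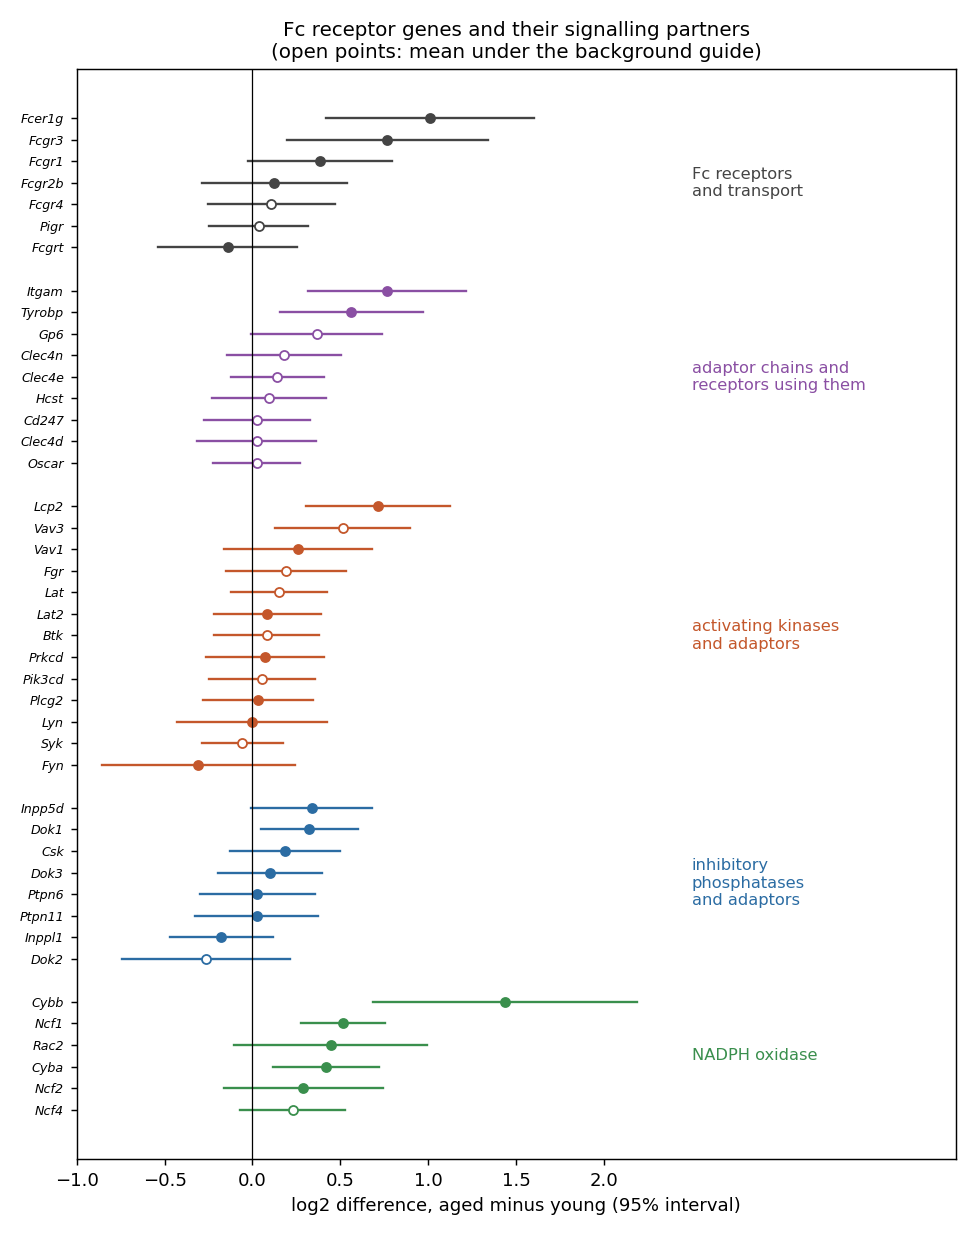
Log2 difference, aged minus young, with its 95% interval (limma, n = 3 each) for the Fc receptor genes and for genes of 4 lists of signalling partners, with open points for genes whose mean lies under the background guide. Fcer1g at 1.01, Fcgr3 at 0.77, Itgam at 0.76, Lcp2 at 0.71 and Cybb at 1.44 lie to the right of most others, and none passed over all probe sets.

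Among the marker lists, the means of the macrophage and T cell lists were higher on every aged than on every young array, as were Fcer1g and Fcgr3. In whole tissue a larger share of macrophages and more RNA per macrophage cannot be told apart. Of 14 macrophage markers 10 were higher and 1 lower by unadjusted p under 0.05 (limma), beside 3.82% and 3.96% of all probe sets. On average 11 of the 14 markers were higher, 0 passed over all probe sets and the median was 0.75. Their mean was 4.23, 4.38 and 4.75 in the young and 5.07, 4.83 and 5.41 in the aged replicates. The 6 arrays stood in the same order by this mean as by Fcer1g and by Fcgr3, which share the arrays with it. Ms4a7 differed by 1.64, the complement gene C1qa by 0.98, the lipid receptor Trem2 by 0.67, Cd14 by 1.13 and Csf1r by 0.29. The markers that stood lower on average were Lyve1 by -0.31, Cd163 by -0.30 and Mrc1 by -0.29. Cd163, the marker lower by unadjusted p, had a mean under the background guide.

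Within arrays, Fcer1g minus the macrophage mean was 1.46, 1.31 and 1.70 in the young and 1.74, 1.84 and 1.97 in the aged replicates. All aged values lay above the young ones by a small margin, with a difference of 0.36. An exact two-sided permutation test gave p = 0.10, the smallest possible, and 0.133 adjusted over 4 such measures. The macrophage mean includes Mrc1, Cd163 and Lyve1, which differed by -0.29, -0.30 and -0.31, while 11 of the 14 markers were higher on average. Ms4a7, Cd68, C1qb, C1qc and Cd14 differed by more than Fcer1g, and a mean without the lower markers was not tried. Fcgr3 minus that mean overlapped between the ages, with a difference of 0.12 (exact permutation p = 0.60, adjusted p = 0.60). For Fcgr2b the difference was -0.53, or -0.32 without young replicate 1, with the aged arrays between -0.37 and -0.31 and the young between -0.15 and 0.62 (exact permutation p = 0.10, adjusted p = 0.133). For Fcgr4, in the background range, it was -0.54 (exact permutation p = 0.10, adjusted p = 0.133). Fcgr2b itself differed by 0.12 and Fcgr4 by 0.11, while the macrophage mean differed by 0.65. The values of Fcgr2b and Fcgr4 against that mean therefore mainly repeat the higher macrophage mean of the aged arrays. They tell little about Fcgr2b and Fcgr4 themselves. The measures of Fcgr3 and Fcgr2b were chosen after their values were seen. The part that macrophage number takes in the differences of Fcer1g and Fcgr3 was not tested.

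**Figure D5:**
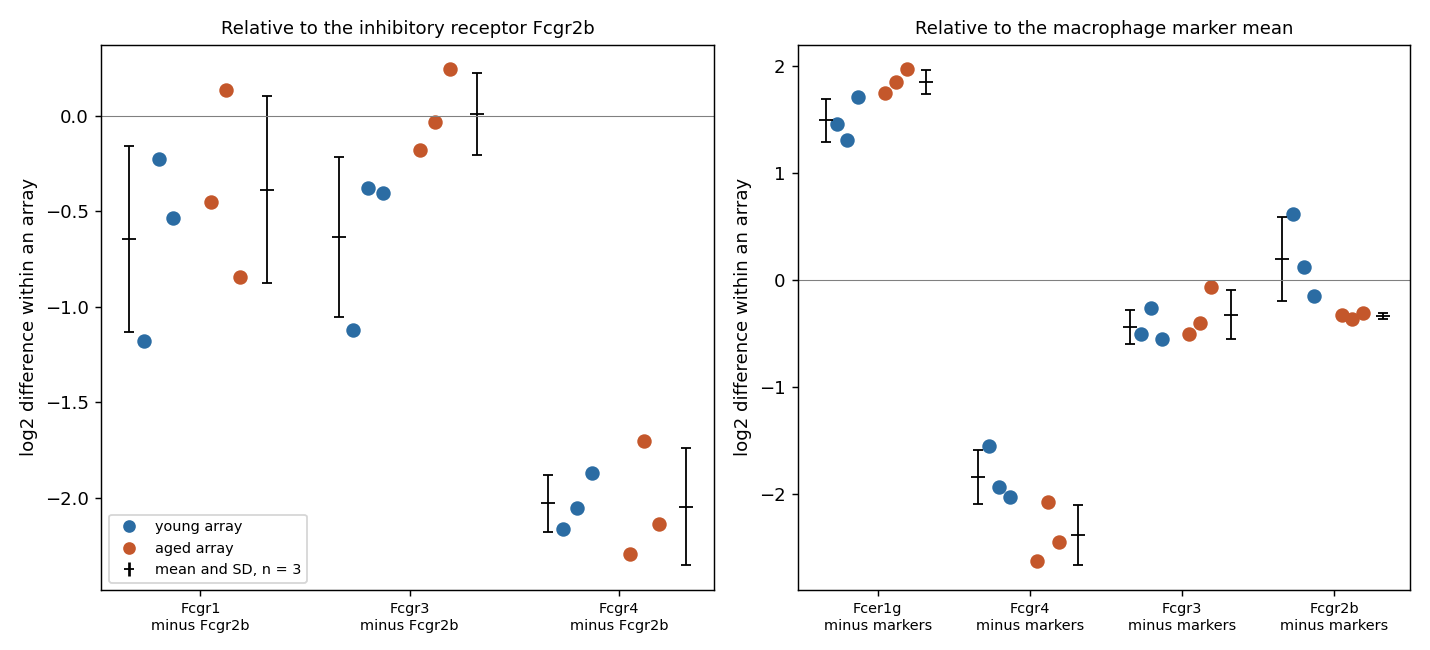
Log2 difference within each array, with the mean and SD of each age (n = 3): on the left an activating receptor minus Fcgr2b, on the right a receptor gene minus the mean of 14 macrophage markers. Only the shift between young and aged points of one column can be read. It was 0.64 for Fcgr3 minus Fcgr2b, 0.36 for Fcer1g minus the markers and -0.53 for Fcgr2b minus the markers. Fcgr2b itself differed by 0.12, so its shift mainly repeats the higher marker mean of the aged arrays.

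Markers of other cells that can carry Fc receptors, and of T cells, were listed too, and limma called 0 members in each of these lists. Many had a mean under the background guide. These were 5 of 9 monocyte and neutrophil, 3 of 6 natural killer cell and 5 of 6 dendritic cell markers. The same held for 5 of 6 mast cell and basophil and 5 of 8 B and plasma cell markers. For 9 monocyte and neutrophil markers, 1 higher by unadjusted p under 0.05, the list mean was 2.96 to 3.07 in the young and 2.82 to 3.20 in the aged arrays. Csf3r differed by 0.39 and Ly6c2 by -0.24. For 6 natural killer cell markers, 0 with an unadjusted p under 0.05, it was 2.92 to 3.06 and 3.00 to 3.15. Nkg7 differed by 0.15 and Ncr1 by 0.01. For 6 dendritic cell markers the list mean was 2.96 to 3.04 and 2.99 to 3.20. Of them 1 was higher by unadjusted p under 0.05, Itgax, by 0.44, under the guide on every array. For 6 mast cell and basophil markers it was 2.56 to 2.87 and 2.71 to 2.83, with 1 higher by unadjusted p under 0.05, Kit, which other cells also express, by 1.01, and the proteases Cpa3 and Mcpt8 in the background range. For 8 B and plasma cell markers it was 4.002 to 4.11 and 3.96 to 4.20, with 1 lower by unadjusted p under 0.05, Sdc1, by -0.34, and Cd79a, a chain of the B cell receptor, at 3.23 in aged replicate 3. For 6 T cell markers, 5 of them under the guide on average, it was 2.74 to 2.80 and 3.02 to 3.54, with 2 higher by unadjusted p under 0.05, Cd3e by 0.50 and Cd8a by 0.40.

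Fcgrt is also known from endothelium and epithelium. The mean of 7 endothelial markers was 5.37 to 5.97 in the young and 4.97 to 5.08 in the aged arrays. By unadjusted p under 0.05 (limma), 6 were lower, beside 3.96% of all probe sets. The list median was -0.73, and Plvap differed by -0.68 and Pecam1 by -0.83. The mean of 6 stromal markers was 6.59 to 7.41 in the young and 5.90 to 6.45 in the aged arrays. Of these markers 4 were lower by unadjusted p under 0.05 (limma), beside the same 3.96%. The list median was -0.57, and Col1a2 differed by -0.66. The 8 epithelial markers had a median of 0.06 and 0 with an unadjusted p under 0.05; Clic6 differed by -0.16. None of these 3 lists had a member that passed (limma). Fcgrt was highest in young replicate 3, the array with the highest endothelial and stromal means. It was lowest, at 8.62, in young replicate 1, whose endothelial mean of 5.90 was close to the 5.97 of young replicate 3. The endothelial mean was lower on every aged than on every young array, while Fcgrt overlapped. The part of these lists in the value of Fcgrt was not tested.

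The 2 genes of the family whose range over the arrays reached 1 log2 unit were set against 14905 other genes above the background guide, by the mean absolute difference between profiles centred on their own means over the 6 arrays. The genes nearest to Fcer1g were the phospholipase-family gene Pld4, at a distance of 0.0945, C1qa at 0.130 and Shisa6 at 0.133. Pld4 was at 3.65, 4.05 and 4.57 in the young and at 5.03, 4.94 and 5.57 in the aged replicates. The genes nearest to Fcgr3 were Itgam at 0.085, the T cell receptor gamma constant gene Trgc2 at 0.111 and the chaperone Fkbp11 at 0.112. These distances describe 6 arrays and carry no test. Of these genes C1qa and Itgam are on the lists above.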

How the data were processed

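RNA of whole choroid plexus was measured on 6 arrays, 1 mouse each, grouped by age from the sample titles. The deposited expression values are on the log2 scale, 1 probe set to each Entrez gene, per the file headers. They were made with RMA, per the submitters' processing notes, and limma 3.14.4 is named there too. RMA corrects background, normalizes between arrays and compresses differences near background. Per the file headers, the same deposited file gives the authors' own comparison of the ages, as a signed fold and a t value (both treated as a score) and a p-value with a q-value. Neither array model nor genome build is given in the sources used here.

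All 25206 probe sets were fitted with limma 3.58.1 in R 4.3.3 (lmFit, eBayes, 1 term for age, no filter), with Benjamini-Hochberg adjustment over all and a threshold of 0.05. The script was tested on simulated data. Differences within arrays were tested by exact two-sided permutation. Gene names were updated by Entrez identifier to RefSeq (GRCm38.p6), which 23740 probe sets matched, and promoter sequences are RefSeq's; all 7 genes matched. Precision is limited by the number of arrays, and all p-values rest on these 6 mice. Those of limma use a spread between mice that is moderated over all probe sets, and those of the permutation test cannot fall below 0.10.

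The genes and lists were chosen with earlier results of these data known. All 7 genes are named. Of each list the rule names called members and up to 4 with the smallest p, plus a fixed set of partners and ligands, and some genes so taken are not reported here. Others named, such as Sdhc, Cd79a, Ncr1 and further markers, were chosen after their values were seen. Alternatives were the rounded value table, renormalization, centring, filters on dim probe sets, another variance model, array weights, a block for the replicate number, and leaving out each array.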

Additional observations from a re-analysis of the deposited data

How the results depend on the processing

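In every alternative tried 0 of the genes tested passed. All 7 were tested except with the filters on dim probe sets, which left 5 of them, without Fcgr4 and Pigr. Over 94 alternatives of the differences of the 7 genes, 89 kept the sign. The lowest adjusted p of any of the 7 ranged from 0.075 to 0.755 (limma). The other 5 of the 94 alternatives turned the sign of a gene near 0 when 1 array was left out, and the cause was not tested. Over the fits without 1 array the difference ranged from -0.043 to 0.28 for Fcgr2b, from -0.013 to 0.25 for Fcgr4, from -0.29 to 0.036 for Fcgrt and from -0.059 to 0.092 for Pigr. It ranged from 0.80 to 1.26 for Fcer1g, from 0.48 to 0.94 for Fcgr3 and from 0.22 to 0.52 for Fcgr1. The number of the 7 with all aged arrays above all young ones, an alternative chosen after seeing the data, ranged from 2 to 3 over these fits, in which 9.68% to 12.8% of all probe sets did so. The within-array differences were recomputed only without 1 array, with the rounded values or quantile normalization once more (those against Fcgr2b), or without the C1q genes (those against the macrophage mean). Without 1 array they ranged from 0.40 to 0.77 for Fcgr3 minus Fcgr2b, from -0.01 to 0.49 for Fcgr1 minus Fcgr2b and from -0.19 to 0.11 for Fcgr4 minus Fcgr2b. Against the macrophage mean they ranged from 0.27 to 0.47 for Fcer1g, from -0.01 to 0.21 for Fcgr3, from -0.70 to -0.32 for Fcgr2b and from -0.70 to -0.40 for Fcgr4. Without the C1q genes, which stood higher with age, these 4 were 0.48, 0.23, -0.41 and -0.42. The mean was not recomputed without Mrc1, Cd163 and Lyve1, which stood lower.

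Among all probe sets, 15 were called higher and 5 lower. Without 1 array these counts ranged from 0 to 27 and from 0 to 25, with both at 0 without young replicate 2 and without aged replicate 2. The lower count was 8 with quantile normalization once more, with centring on array medians and among probe sets with a mean above the median, 12 among probe sets above the array median on at least 3 arrays, and 11 with a variance trend. The replicate numbers were not shown to pair the mice: deviations of same-numbered arrays correlated by -0.02, 0.15 and -0.05. With the replicate number as a block the lower count was 1 and the higher 14, and the adjusted p of Fcer1g was 0.075 (limma). The array signal limits Fcgr4 and Pigr, which lay in the background range.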
